A study of Mus musculus with 4 samples.

Results

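The let-7 family and miR-98 are 9 mature guide-strand miRNAs, chosen by name from the 611 mouse miRNAs on the array. They are listed there as mmu-let-7a, mmu-let-7b, mmu-let-7c, mmu-let-7d, mmu-let-7e, mmu-let-7f, mmu-let-7g, mmu-let-7i and mmu-miR-98, written without the species prefix from here on, and each was read by 2 probes of 10 spots. The samples were neural stem and progenitor cells derived from mouse embryonic stem cells (ESCs) that were cultured as neurospheres, free-floating balls of progenitors. In order, the groups were secondary neurospheres titled NFIA OE and titled control (passage 1, 12 days after the embryoid body stage), then primary neurospheres titled NFIA OE and titled control (passage 0, day 6). NFIA OE stands for overexpression of NFIA, a transcription factor of glial development. All groups came from spheres that mixed both kinds of cells, which were then sorted apart by fluorescence. Each group was 1 array, without replicate, and the sources used here do not state the construct or promoter that drives NFIA. On NFIA status the sample labels disagree, since the source names call the control-titled cells the NFIA line and the NFIA OE-titled cells WT, so groups here follow the titles. If the source names are right, each signed title difference turns its sign, while passage differences between primary and secondary spheres stay as they are.

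The let-7 miRNAs guide silencing complexes to messages that match their seed, the short stretch near the 5′ end that pairs with the target. In stem cells the RNA-binding protein Lin28 blocks the processing of let-7 precursors, and mature let-7 increases as cells differentiate. Known targets include Lin28 itself, Hmga2 and Myc. The family is thus read as a marker of developmental timing in neural progenitors.

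All 9 mature sequences were matched by name to RefSeq (build GRCm38.p6) and are shown to make plain how alike the targets of these probes are. Capitals mark the seed, bases 2 to 8 from the 5′ end.
let-7a: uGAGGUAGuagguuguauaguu
let-7b: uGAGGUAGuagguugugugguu
let-7c: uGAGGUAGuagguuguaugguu
let-7d: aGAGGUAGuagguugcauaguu
let-7e: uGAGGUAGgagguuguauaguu
let-7f: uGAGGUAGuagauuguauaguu
let-7g: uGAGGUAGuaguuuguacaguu
let-7i: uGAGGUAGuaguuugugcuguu
miR-98: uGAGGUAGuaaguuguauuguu

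All 9 members shared 1 seed, which 11 of the 1679 mature mouse miRNA names in the RefSeq table carry. All were 22 bases long, and any pair of them differed at 1 to 6 bases. Against let-7a, counted from the 5′ end and with the let-7a base first, let-7c differed by A19G, let-7e by U9G and let-7f by G12A. let-7b differed by A17G and A19G, let-7d by U1A and U16C, let-7g by G12U and U18C, and miR-98 by G11A and A19U. let-7i was the most distant from let-7a, with G12U, A17G, U18C and A19U. Probes for targets this similar can bind more than 1 member, and the share of such cross-binding in each value was not tested.

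The mature let-7a, let-7f and let-7d lie close together on the minus strand of chromosome 13, at chr13:48538239-48538260, chr13:48537889-48537910 and chr13:48536078-48536099. let-7c and let-7b lie together on the plus strand of chromosome 15, at chr15:85706616-85706637 and chr15:85707325-85707346. A second copy of let-7c lies on chromosome 16, at chr16:77599672-77599693 on the plus strand. A second copy of let-7f, at chrX:151912353-151912374, neighbours miR-98, at chrX:151913229-151913250, both on the plus strand. let-7e lies at chr17:17830366-17830387 on the plus strand, let-7g at chr9:106178846-106178867 on the plus strand and let-7i at chr10:122985698-122985719 on the minus strand. let-7a, too, has a further gene, on chromosome 9. An array cannot tell the copies of a mature sequence apart.

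The arrays detected 186 to 220 miRNAs each, and 153 were detected on all 4. Brightness was uneven. The 75th percentile of commonly detected probes was 369, 443, 261 and 167 intensity units on the secondary NFIA OE-titled, secondary control-titled, primary NFIA OE-titled and primary control-titled arrays. Each array was divided by its own percentile, so that a scaled level of 1 means that percentile. With 4 arrays, their number sets how precise any value can be. All 8 neural marker miRNAs listed, among them miR-9 and miR-124, were detected on every array except the primary NFIA OE-titled one, which had 7. None (0) of the 5 blood markers was detected. Of 8 liver and gut markers, miR-375 alone was detected, on the primary control-titled array.

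The passage comparison asked how the miRNAs differ between secondary and primary spheres. The members let-7a, let-7c and let-7d rose, as did let-7f, let-7g and let-7i, between 2.85-fold and 6.56-fold, whereas let-7e had 1.26 times its primary level and was not called. Passage and time in culture changed together and cannot be told apart. In sorted bulk samples a change in the share of cells that express a miRNA and a change in its amount per cell cannot be told apart either.

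let-7c, made from loci on chromosomes 15 and 16, had scaled levels of 2.89 and 3.28 in secondary spheres titled NFIA OE and control, against 0.878 and 0.251 in primary spheres titled NFIA OE and control. Both secondary levels were above both primary levels, and the primary control-titled array was the lowest. The difference was 2.71 on the log2 scale (limma adjusted p = 1.88e-14, SE 0.29, with 2 arrays for each passage), and it ranked 1 of 153 from the highest. let-7d, from the chromosome 13 cluster, had 1.59 and 2.30 in the secondary spheres in the same order of titles, against 0.503 and 0.265 in the primary spheres. It differed by 2.39 (limma adjusted p = 5.11e-12). let-7i, from a gene of its own, had 1.71 and 2.38 in secondary against 0.762 and 0.286 in primary spheres, a difference of 2.11 (limma adjusted p = 7.88e-10). For both, too, the passages did not overlap and the control-titled primary array was the lowest.

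let-7f and let-7a, neighbours of let-7d on chromosome 13, moved less than let-7d. let-7f had scaled levels of 4.93 and 6.65 in secondary spheres titled NFIA OE and control, against 2.14 and 1.37 in primary spheres titled alike, and differed by 1.74 (limma adjusted p = 2.59e-07). let-7a had 5.42 and 6.46 in secondary against 2.76 and 1.57 in primary spheres, a difference of 1.51 (limma adjusted p = 7.75e-06). let-7g, from chromosome 9, had 1.95 and 2.72 in secondary against 1.03 and 0.625 in primary spheres, a difference of 1.52 (limma adjusted p = 6.77e-06). In these 3 members the passages again did not overlap. Both secondary levels were thus above both primary levels in 6 of the 7 members detected on every array, as in 15% of the 153 miRNAs.

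let-7e, whose gene lies between those of miR-99b and miR-125a, stood apart. Its scaled levels were 1.82 and 1.75 in secondary spheres titled NFIA OE and control, against 1.77 and 1.13 in primary spheres titled alike. The primary control-titled array was lower than the others, which were nearly level with each other. The difference was 0.34 (limma adjusted p = 0.356, not called). Within the arrays, where scaling plays no part, the passage difference of let-7c exceeded that of let-7e by 1.68 in the NFIA OE-titled pair and by 3.08 in the control-titled pair. For let-7a, which differs from let-7e by a single base, the excess was 0.93 and 1.41 in these pairs, and for all 6 other tested members it was at least 0.88 in both.

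let-7b, which shares the chromosome 15 locus with let-7c, had scaled levels of 1.09 and 1.30 in secondary spheres titled NFIA OE and control, and 0.15 in primary spheres titled NFIA OE. On the primary control-titled array it was not well above background, so no level is given there. It was 7.29-fold higher in secondary than in primary spheres in the NFIA OE-titled pair and at least 12.2-fold higher in the control-titled pair. Such bounds set the bright array against the lowest signal among detected probes of the dim array. miR-98, the family member with its own name, had 0.391 and 0.549 in secondary spheres in the same order and 0.128 in the primary NFIA OE-titled spheres, and it was not well above background on the primary control-titled array. It was 3.05-fold higher in secondary spheres in the NFIA OE-titled pair and at least 5.18-fold higher in the control-titled pair. Over both titles, with 1 of 2 primary arrays detected, the bounds were at least 9.45-fold for let-7b and at least 3.98-fold for miR-98 (limma adjusted p = 0.000142 and 0.00161 in the fit that keeps miRNAs detected on at least 1 array). That fit raised each signal under the lowest detected signal of its array to that signal. The primary control-titled values of let-7b and miR-98 were thus filled in, and these p-values rest on them.

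**Figure D1:**
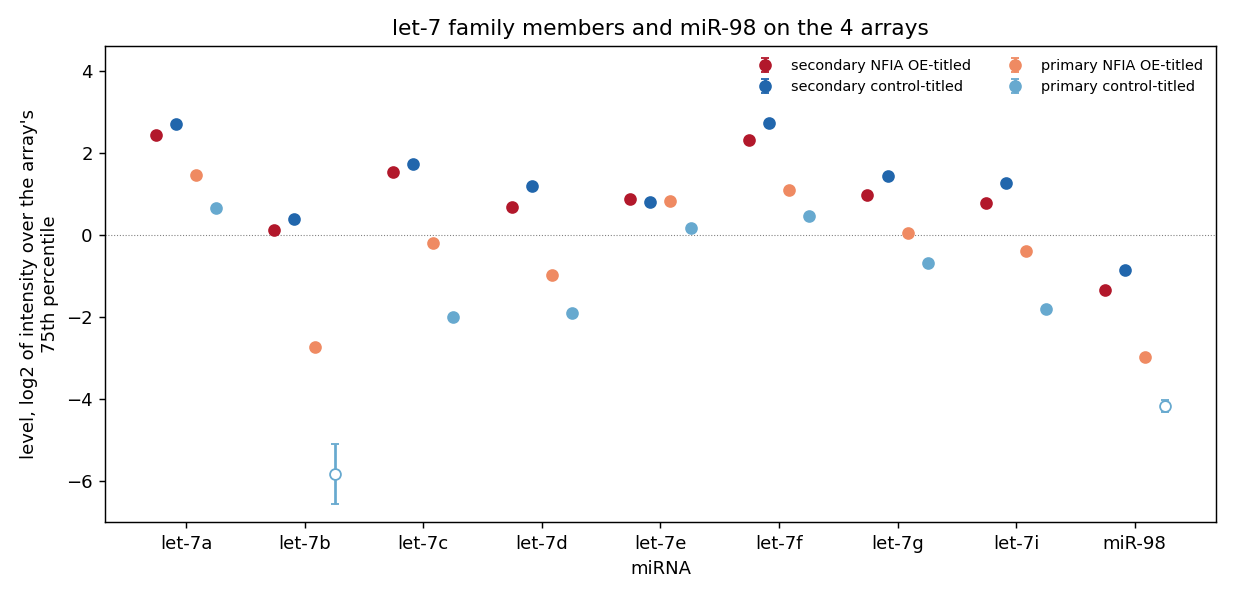
Scaled levels of the 9 miRNAs (log2 of intensity over the array's 75th percentile of commonly detected probes, y axis) on the 4 arrays, with bars for the standard error over spots, a technical error only. Open points were not well above background; levels compare within a miRNA, not between miRNAs, and in 8 of 9 the primary control-titled point was lowest and the secondary control-titled point highest.

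In all, limma called 6 of the 7 members detected on every array higher in secondary spheres, where 13.1% of the 153 tested miRNAs were called higher and 32.7% lower. let-7b and miR-98 (2 of 9) dropped out of that fit because they were dim on 1 primary array, so the 7 are not the whole family. The members' median difference was 1.74, and the median over all 153 was -0.39, a shift set by the scaling. Relative to that median all 7 were called higher, let-7e among them at 0.73 (limma adjusted p = 0.0451), where 17% of all tested were called higher.

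The limma test pooled the residual over miRNAs into 1 SD of 0.29, and each of the 7 members had a larger residual of its own, from 0.30 for let-7e to 1.00 for let-7c, against a median of 0.17 over all tested. Judged each on its own residual, an alternative chosen after seeing the data, 0 of 7 were called (adjusted p = 0.384 to 0.567, and 0 of 7 at an unadjusted p under 0.05). On that basis none (0) of the 153 miRNAs was called and 21 had an unadjusted p under 0.05. Each limma call from the fit over the 153 thus rests on the pooled SD. The 6 calls became 0 when the secondary control-titled array was left out, 2 when the secondary NFIA OE-titled array was left out and 0 with each array centred on its median miRNA, where the adjusted p of the 6 was 0.0501 to 0.0534. The calls over all 153 miRNAs, 70 in the full fit, became 0, 18 and 0 under these same changes. The labels name no separate cultures, so these p-values reflect only how these arrays vary, which may be technical.

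**Figure D2:**
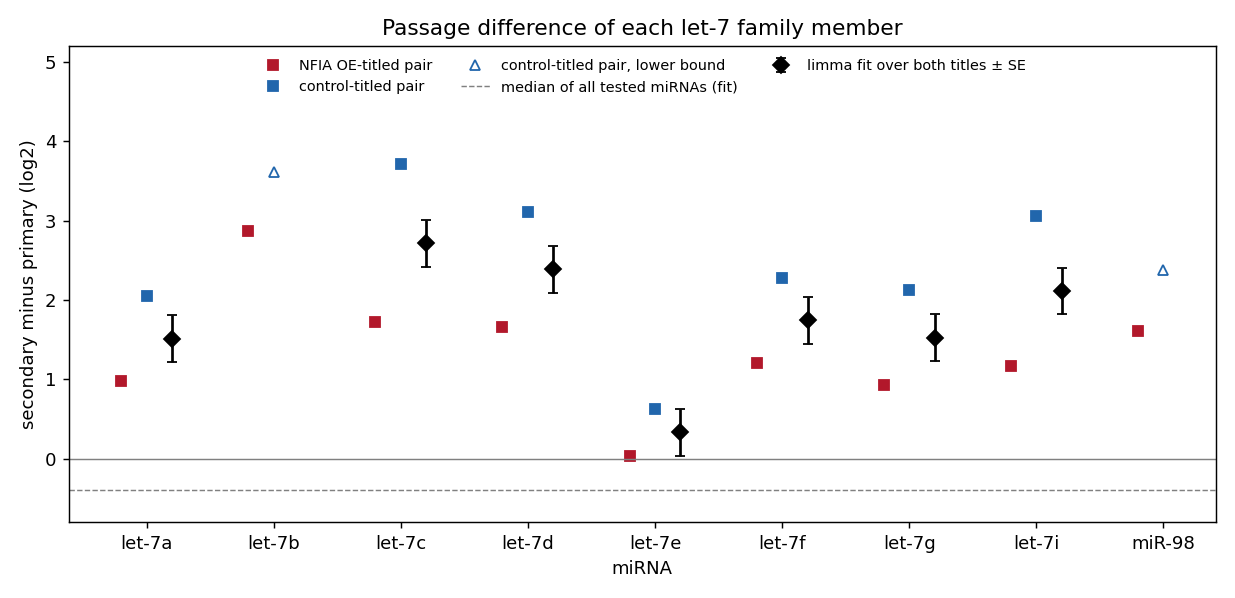
Difference between secondary and primary spheres (log2, y axis) for each miRNA in the NFIA OE-titled pair, in the control-titled pair and in the limma fit over both, with bars for its standard error. Open triangles are lower bounds, and the dashed line is the median of all tested miRNAs at -0.39; let-7e lies nearest 0 in both pairs.

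The passage step was larger in the control-titled pair for each of the 7 members, as it was for 51% of the 153 tested miRNAs. The members' median was 1.17 in the NFIA OE-titled pair and 2.28 in the control-titled pair, where all tested miRNAs had medians of -0.39 and -0.41. In these pairs the differences were 1.72 and 3.71 for let-7c, 1.66 and 3.11 for let-7d, and 1.17 and 3.06 for let-7i. let-7a differed by 0.97 and 2.04, let-7f by 1.20 and 2.28, let-7g by 0.92 and 2.12, and let-7e by 0.04 and 0.63. At least 2-fold higher in secondary spheres were 4 of the 7 in the NFIA OE-titled pair, where 5.32% of all miRNAs detected on both arrays were. That count was 3 with normexp and 6 with quantile normalization, without scaling and with the authors' processed values. The 5.32% holds for the values as reported only. let-7b and miR-98, outside the 7 but detected on both arrays of the NFIA OE-titled pair, were 7.29-fold and 3.05-fold higher there. In the control-titled pair 6 of the 7 were at least 2-fold higher, against 10% of all. With 1 array per group the difference between the pairs was not tested. The primary control-titled array was the dimmest of the 4, and the part of its brightness in these values was not tested.

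Both probes of a member gave the same direction in each comparison. The gap between them had a median of 0.05 on the log2 scale in the NFIA OE-titled passage pair, over 9 members, and of 0.10 in the control-titled one, over 7. It was largest for let-7b, at 0.66 in the NFIA OE-titled pair, where its probes had intensities of 22.6 and 67.8 units in the primary spheres. In the control-titled pair it reached at most 0.16, for let-7i.

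The levels had nearly 1 order across the arrays. In 8 of 9 members the secondary control-titled array was highest, followed by the secondary NFIA OE-titled, the primary NFIA OE-titled and the primary control-titled array, counting measured signals near background for let-7b and miR-98. Among the 153 tested miRNAs 9.8% had this order, and among the 7 tested members 6 had it. let-7e departed from it with its secondary NFIA OE-titled level on top. The gap between the secondary arrays exceeded the pooled spread of a pair, 0.42, in 5 members (let-7d, let-7f, let-7g, let-7i and miR-98) and stayed within it in the other 4. That spread comes from the pooled SD, which is smaller than the own residual of each tested member. let-7b and miR-98 were not in the fit that gave it. The share of all miRNAs with such a gap was not counted, so these are not calls.

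The title comparison asked whether the miRNAs differ with NFIA status. Over both passages none (0) of the 7 members was called by limma, where 2.61% of the 153 were, and let-7c alone had an unadjusted p under 0.05, at 0.81 (limma adjusted p = 0.147), as did 16 of the 153. The median title difference over the members was 0.28.

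At passage 1, 6 of the 7 were lower in the cells titled NFIA OE and 1 higher. With quantile normalization 3 were higher, and 0 without scaling, which lowers every miRNA of this pair alike. As reported, the members' median was -0.43, where 41.5% of all 195 miRNAs detected on both arrays were higher. let-7d differed by -0.53, let-7i and let-7g by -0.48 each, let-7f by -0.43, let-7a by -0.25 and let-7c by -0.18, while let-7e was at 0.05. miR-98 and let-7b, measured on both of these arrays, were at -0.49 and -0.25. No member reached 2-fold (0 of 7) in this pair, where 3.59% of all were 2-fold higher and 1.03% 2-fold lower.

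At passage 0 all 7 were higher in the cells titled NFIA OE, with a median of 0.81, where 44.1% of all 179 miRNAs were. The differences of 1.81 for let-7c and 1.41 for let-7i, 2 of 7 members, passed 2-fold, as did 5.03% of all. With normexp background correction 0 of 7 passed it, and 7 of 7 without scaling, which raises every miRNA of this pair alike. The 5.03% holds for the values as reported only. let-7d stood at 0.92, let-7a at 0.81, let-7g at 0.72, let-7f at 0.65 and let-7e at 0.64. For let-7b and miR-98 the bounds were at least 1.42-fold and at least 1.21-fold higher in the cells titled NFIA OE. Higher at passage 0 and lower at passage 1 were thus 6 of 7 members and 26.1% of the 153. If the source names are right, these counts and shares stand with higher and lower exchanged. The additive fit leaves this interaction in the residual, and with 1 array per group it was not tested.

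**Figure D3:**
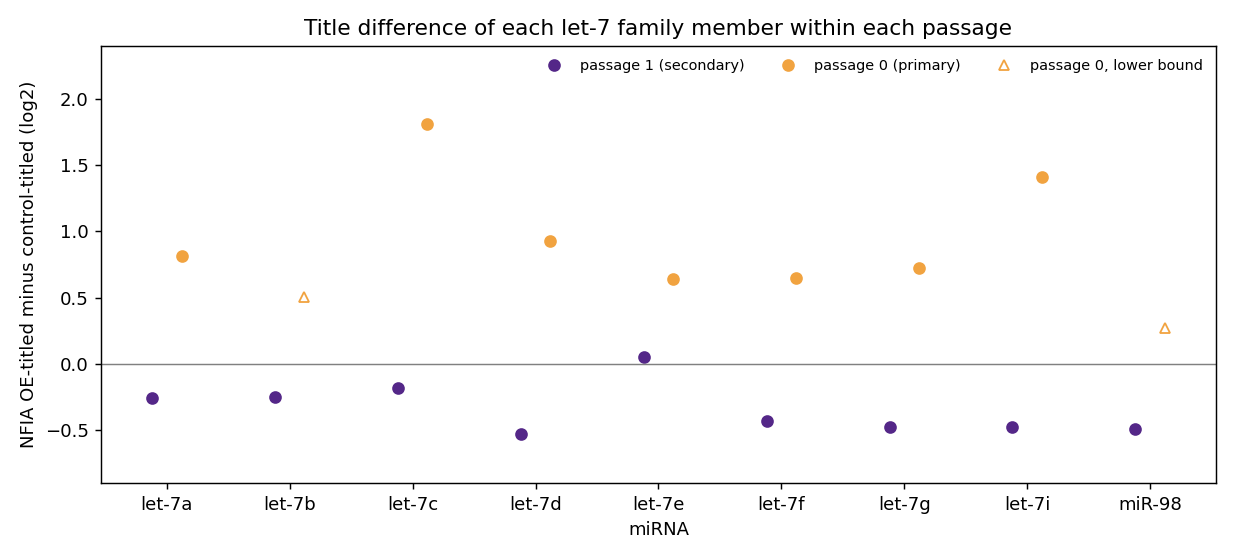
Difference between the NFIA OE-titled and the control-titled array (log2, y axis) for each miRNA at passage 1 and at passage 0. Open triangles are lower bounds; passage 0 values lie above 0 for each member and passage 1 values below 0 for 8 of 9, with let-7e at 0.05 (under quantile normalization let-7a and let-7c also lie above 0 there).

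Some marker lists of cell types moved with the titles or with passage. Of the 7 neural markers detected on all 4 arrays, miR-9, miR-9* and miR-125b-5p were called higher in secondary spheres. miR-124, a miRNA of neurons, was called lower (-1.28, limma adjusted p = 0.000133). Over all tested miRNAs 13.1% were called higher and 32.7% lower. By title 0 of the 7 were called, where 2.61% of all tested were. By passage the median of these 7 was -0.26, against -0.39 over all tested miRNAs. miR-153, miR-219 and miR-128 differed by -0.65, -0.44 and -0.26 between passages and were not called. The 8 neural markers summed to 19.6 and 26.1 on the secondary NFIA OE-titled and control-titled arrays, against 13.3 and 12.0 on the primary ones. On both secondary arrays the 3 called higher had the highest levels of the 8, so they weigh most in that sum. Of 10 mesenchymal, muscle and endothelial markers, 4 were detected on each NFIA OE-titled array and 2 on each control-titled array. The 4 were miR-199a-3p, miR-199a-5p, miR-199b* and miR-214, and the 2 were miR-199a-3p and miR-199b*. The rest of the 10, miR-143, miR-145, miR-126-3p, miR-1, miR-133a and miR-206, were detected on no array. All 10 markers together had a summed scaled level of 1.53 and 1.46 on the secondary and primary NFIA OE-titled arrays. It was 0.306 and 0.428 on the secondary and primary control-titled arrays. The ESC-enriched miR-290 to miR-295 and miR-302 groups, 19 miRNAs listed, summed to 0.492 and 0.251 on the secondary NFIA OE-titled and control-titled arrays, against 4.38 and 5.14 on the primary ones. Of these, 7 and 1 were detected on the secondary arrays and 11 and 10 on the primary arrays in the same order. miR-302b was the member detected on all 4 arrays and was lower in secondary spheres (-3.24, limma adjusted p = 7.65e-19). On the secondary control-titled array its scaled level, 0.0495, was the lowest signal among detected probes. The size of its difference and its p-value thus rest on a value at the detection limit. The part of such cells in the let-7 values was not tested.

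Passenger strands, the partner strands that are mostly degraded after processing, stayed near background. Of 7 on the array, let-7c-1* alone was detected, on both secondary arrays and on neither primary array, and it was read well above background by 1 of its probes. Its sequence, from the chromosome 16 copy of let-7c (chr16:77599717-77599738), is printed to show that it can be told from the guide strands, with bases 2 to 8 in capitals.
let-7c-1*: cUGUACAAccuucuagcuuucc
That probe had intensities of 20.1 and 24.6 units on the secondary NFIA OE-titled and control-titled arrays, against 9.03 and 3.79 on the primary ones. Scaled, the bound fell under 1, so no fold is given. let-7a*, let-7b*, let-7d*, let-7f*, let-7g* and let-7i* were not well above background on any array. The mature strands let-7a-1-3p and let-7c-2-3p have 1 and the same sequence in RefSeq, so the let-7a* probes cannot tell them apart.

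Genes of other miRNAs lie within 50 kb of let-7 genes in the RefSeq table, and the values of their miRNAs are given by locus. On chromosome 17, miR-99b and miR-125a-5p, the neighbours of let-7e, differed between passages by -0.33 and -0.19 and were not called, like let-7e. On chromosome 16, miR-99a, the neighbour of let-7c, rose by 1.89 (limma adjusted p = 2.95e-08), with 1.03 in the NFIA OE-titled pair and 2.70 in the control-titled pair. miR-125b-5p, made there and beside the second let-7a gene on chromosome 9, rose by 0.71 (limma adjusted p = 0.0388), and miR-100, also beside that let-7a gene, rose by 0.97 (limma adjusted p = 0.00458). miR-135a, of which the gene Mir135a-1 lies near that of let-7g, was at -0.09 and not called. In all, 3 of the 6 neighbours tested were called higher and 0 lower, where 13.1% of all tested were called higher.

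**Figure D4:**
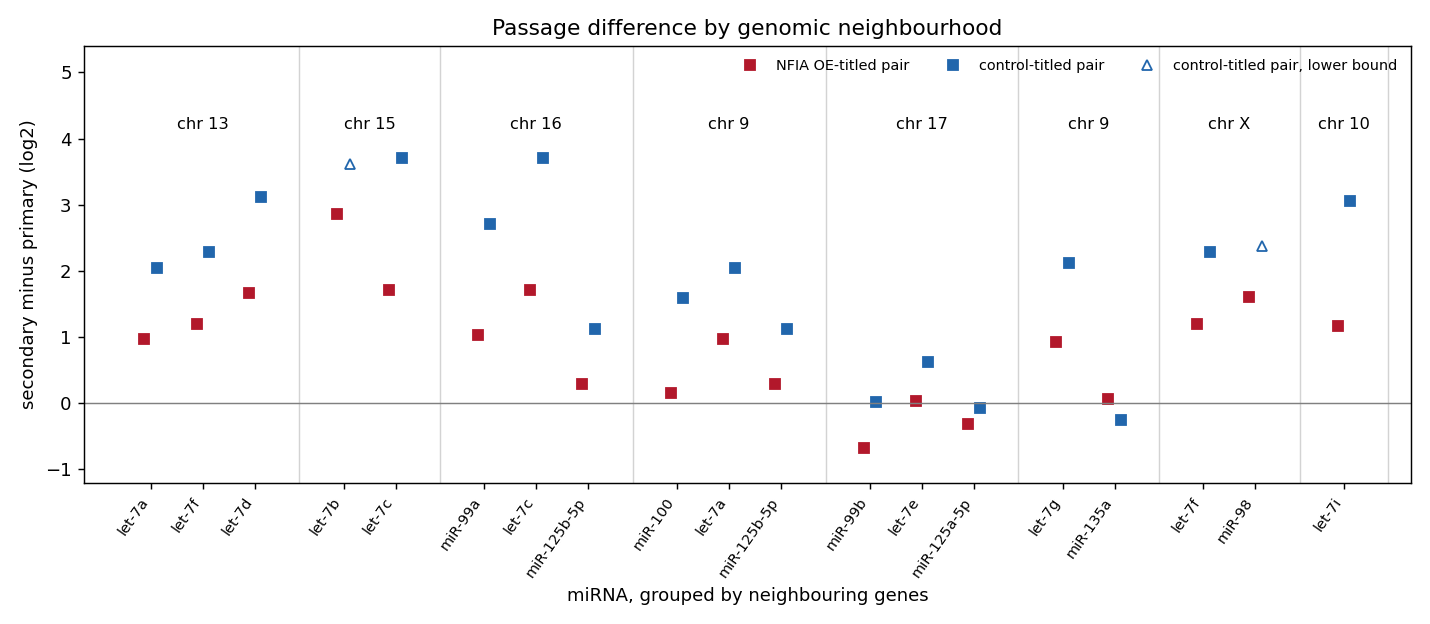
Difference between secondary and primary spheres (log2, y axis) for let-7 members and their genomic neighbours, grouped by neighbouring genes, with the chromosome above each group. let-7a, let-7c, let-7f and miR-125b-5p each appear in 2 groups. The 3 miRNAs of the chromosome 17 group lie between -0.68 and 0.63, and open triangles are lower bounds.

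Of 8 miRNAs reported to target Lin28, the let-7 antagonist, miR-9 (1.87, limma adjusted p = 3.82e-08) and miR-125b-5p were called higher in secondary spheres and none (0) lower, where 13.1% of all tested were called higher and 32.7% lower. The median of the 8 was -0.05, against -0.39 over all. The other 6, miR-125a-5p and the miR-30 family, were not called and lay between -0.35 and 0.01.

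Among the 146 tested miRNAs outside the family, the one nearest in pattern to the mean of the 7 members was miR-99a, at a distance of 0.36 log2 over the 4 arrays. Distance was Euclidean between values centred on each miRNA's own mean, and its median over the 146 was 2.39. miR-9, a neural miRNA, followed at 0.81, then miR-27a at 0.82, miR-100 at 0.83 and miR-322 at 0.88. let-7c at 1.12 and let-7e at 1.47 lay farther from the family mean than these, while let-7f was nearest at 0.26. let-7c exceeded the mean pattern in size, and let-7e fell short of it. These distances rest on 4 arrays and describe them only.

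The plot of medians by processing sets the members beside all miRNAs. The members' median passage difference ran from 1.59 with normexp background correction to 2.69 without scaling, and the median of all miRNAs from -0.70 without a detection filter to 0.56 without scaling. In each of these settings all 7 members stayed above 0, let-7e at its lowest at 0.28. Leaving out the other factor or changing the detection filter cannot change these members' differences.

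**Figure D5:**
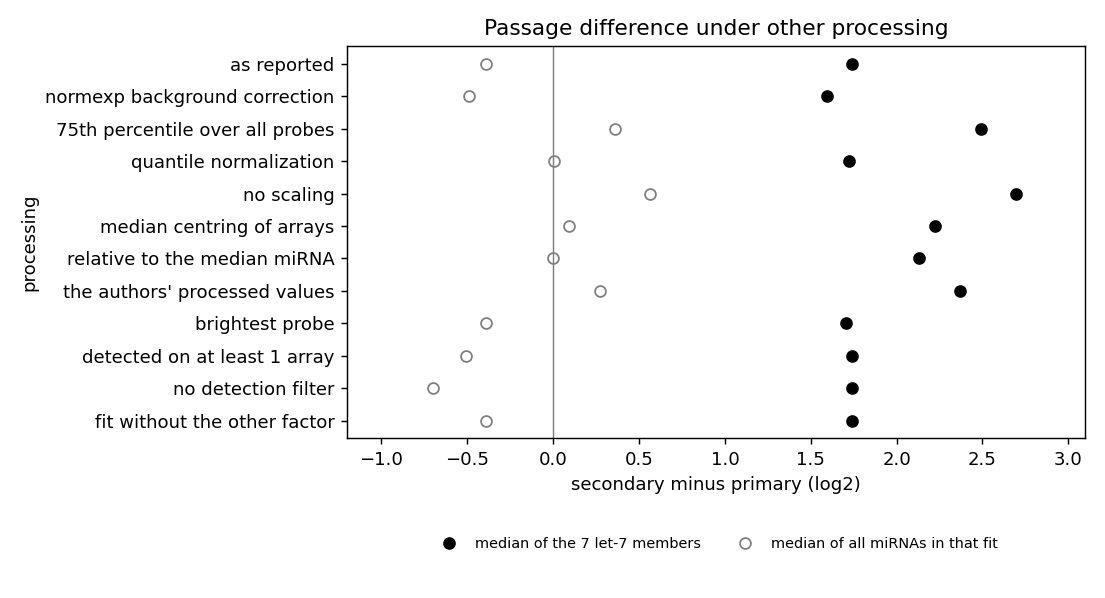
Median difference between secondary and primary spheres (log2, x axis) over the 7 tested let-7 members (filled) and over all miRNAs in the same fit (open), under each way of processing (y axis). The let-7 median lies above the median of all miRNAs in every setting shown. By construction, this gap is the same as reported, with the all-probe percentile, without scaling, with median centring and relative to the median miRNA. These settings differ only by a constant for each array.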

How the data were processed

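Spot intensity in the deposited scanner output was linear and background-subtracted, without scaling from array to array, per the file headers, which name the software as Feature Extraction 10.5.1.1. In the authors' table of processed intensity, each column was the total gene signal of that scan over a single constant. RNA carried Cy3 on a 1-colour array, per the labels. The headers name 1 slide for the 4 arrays.

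Spots flagged as outliers were left out and the rest averaged per probe. A probe was detected where 50% or more of its spots had the scanner's mark for signal above background. Values were divided by the 75th percentile of probes detected on all 4 arrays, put on the log2 scale and averaged over probes. limma 3.58.1 in R 4.3.3 fitted title and passage as additive terms, leaving 1 residual degree of freedom, with Benjamini-Hochberg adjustment over 153 miRNAs and a call under 0.05. Single pairs of arrays had no test and were counted at 2-fold. The fit was tested on simulated data that gave every miRNA the pooled SD and no interaction of title and passage. Unequal residuals like those of the members were thus not covered.

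Alternatives changed background correction, scaling, probe summary, detection filter, covariates or arrays, or took the authors' processed intensity. The members and lists were chosen with earlier results of these data known. Named miRNAs were all members, detected passenger strands, neighbours within 50 kb detected on all arrays (miR-135a, which that rule takes, was added from the RefSeq table), called Lin28-targeting miRNAs and the 5 nearest in pattern. miR-302b, miR-375, the neural markers and the mesenchymal, muscle and endothelial markers were named after their values were seen.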

Additional observations from a re-analysis of the deposited data

Results flagged for a closer look

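In 6 members the title difference (NFIA OE-titled minus control-titled) was above 0 at passage 0 and below 0 at passage 1. On the log2 scale the passage 0 difference exceeded the passage 1 difference by 1.99 for let-7c, 1.89 for let-7i, 1.45 for let-7d, 1.20 for let-7g, 1.08 for let-7f and 1.07 for let-7a. Ranked among 153 miRNAs by this gap, let-7c was 1, let-7i 2, let-7d 4, let-7g 6, let-7f 9 and let-7a 11. If the source names are right, the gaps turn negative and these ranks become 153, 152, 150, 148, 145 and 143. With 1 array per group the difference between passages was not tested, and all members share the primary control-titled array. let-7e had the same sign in both passages, with a gap of 0.59.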

How the results depend on the processing

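Passage directions held for all 7 tested members in each of the 16 settings run, but not every setting could change them. On own residuals, without the other factor and with other detection filters, each member's difference stays the same by construction. Without scaling, with the all-probe percentile, with median centring and relative to the median miRNA, all miRNAs shift alike. The 6 passage calls became 0 with median centring of arrays and 0 on each miRNA's own residual, where 0 of all 153 miRNAs were called too. They ranged from 0 to 6 when 1 array was left out and the factor fitted alone, with 0 to 68 calls over all miRNAs, against 70 in the full fit. let-7e was called in 3 settings, the 75th percentile over all probes, the authors' processed values and relative to the median miRNA. The median passage difference moved to 2.49 with the percentile over all probes, 2.69 without scaling, 2.22 with median centring, 2.13 relative to the median miRNA and 2.37 with the authors' processed values, and ranged from 1.41 to 2.06 with 1 array left out. In the same order it was 1.74, 1.66, 1.86, 1.57 and 1.82 in the NFIA OE-titled pair. In the control-titled pair it was 3.20 with the percentile over all probes, 3.68 without scaling, 2.69 relative to the median miRNA and 2.89 with the authors' processed values. By title, quantile normalization called 1 member, let-7c, among 8 of all miRNAs, and leaving out 1 array called 0 to 1, with 0 to 1 over all. The title median was 1.46 at passage 0 without scaling and -0.11 at passage 1 with quantile normalization, where 3 of 7 members were above 0.

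The title difference over both passages turned below 0 for let-7d with normexp (-0.080), for let-7f with the all-probe percentile (-0.0020) and the authors' values (-0.0080), and for let-7g with the authors' values (-0.0066). With 1 array left out passage mixes into the title difference. It then ranged from -0.74 to 1.30 for let-7a, -1.04 to 2.67 for let-7c, -1.36 to 1.76 for let-7d, -1.03 to 1.25 for let-7f, -0.94 to 1.18 for let-7g and -1.06 to 2.0 for let-7i, and their median from -1.03 to 1.30. Title and passage are each other's block in the fit, and without the other factor 6 members and 61 of all miRNAs were called by passage, and 0 members and 0 of all by title. Signal near background limits let-7b, miR-98 and the passenger strands.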
